A study of Mus musculus with 12 samples.

Results

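The transcripts of 10 genes of blood and lymphatic vessels were followed in colon tissue of mice with colitis induced by dextran sulfate sodium (DSS). The genes were chosen by symbol from a count table of 54532 genes, and each symbol matched 1 gene: Pecam1, Cdh5, Clec14a, Kdr, Flt1, Tek, Vwf, Emcn, Lyve1 and Prox1. They were chosen with earlier results of these data known, so the shares of all genes set beside their counts are descriptions. RNA-Seq was performed on 12 libraries, 3 each from control, model, Rhy and DXM mice. All were male wild-type C57BL/6J mice, 5 weeks old. Control mice drank plain water and received no treatment. Model mice drank DSS, which damages the lining of the colon. Rhy mice drank DSS and received rhynchophylline, an alkaloid of Uncaria rhynchophylla, and DXM mice drank DSS and received dexamethasone, a glucocorticoid, at 4 mg/kg. Rhy was given at 2, 4 or 8 mg/kg in the study, and the dose of the sequenced Rhy mice was not given in the sources used here. Each library held 14346478 to 17749716 counted reads, and nothing beyond the labels says that the libraries came from separate animals, so p-values measure the spread between these libraries.

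Blood vessels are lined by endothelial cells joined by adhesion proteins, which sense growth factors of the VEGF and angiopoietin families through receptor tyrosine kinases. Lymphatic capillaries drain fluid and leukocytes from the gut wall, and their endothelium is set apart from that of blood vessels by the transcription factor Prox1. In the inflamed colon both vessel systems are known to remodel.

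Some libraries stood apart from the rest. Model 1 and model 2 stood out by their likeness: the mean chi-square per gene between their counts was 2.85 (1 is expected from sampling alone), against 53.64 to 266.48 in the other 11 pairs within groups. The common dispersion of the pair was 0.00201, against 0.0604 to 0.351 in the other 65 pairs of libraries. Whether they are separate replicates cannot be told from the values. They were kept as 2 libraries, and results of fits with the pair summed are given for the comparisons with model. Hoxb13, a homeobox gene of the distal colon, was at 0.165 CPM (counts scaled to library size) in control 3, 1.49 CPM in model 3 and 0.0 CPM in Rhy 1, and at 72.0 to 316.5 CPM in the other 9 libraries. The B-cell gene Ms4a1 was at 0.933 CPM in control 3 and 0.0 CPM in Rhy 1, and at 11.9 CPM or more in every other library. Mitochondrial genes took 21.0, 17.0 and 6.33% of reads in control 1 to 3, 13.4, 14.0 and 11.1% in model, 23.8, 15.2 and 8.90% in Rhy and 25.7, 7.88 and 7.48% in DXM. Rhy 1 also had the fewest genes with a count, 19477, against 21178 to 23468 in the others. The part of these differences in the vessel gene values was not tested. All 10 epithelial markers were present, led by Krt8 at a mean of 3449 FPKM (reads scaled to transcript length and library size). They mark epithelium in general and not the colon. A vessel gene in these bulk samples can be low through fewer vessel cells or through less RNA per cell, and these cannot be told apart.

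All 10 vessel genes were detected in every library and all passed the filter on low counts. Per transcript length, Pecam1 was the most abundant at 4.29 ± 1.46 FPKM (SD over 12 libraries), followed by Clec14a at 3.97 ± 0.832 FPKM and Lyve1 at 3.95 ± 2.96 FPKM. Prox1 was the least abundant at 0.496 ± 0.132 FPKM, with 31 to 105 reads per library. The broader endothelial list was led by Plvap, the diaphragm protein of fenestrated capillaries, at 29.1 FPKM. The widest range belonged to Lyve1, whose highest library was 6.95 times its lowest on the CPM scale, and the narrowest to Clec14a at 1.83 times. The group mean was highest in DXM for 8 of the 10 genes and lowest in the model group for 8. The exceptions were Clec14a, highest in control, Prox1, highest in model and lowest in Rhy, and Cdh5, lowest in control. The order of group means was not counted over all genes, so these counts are a description.

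**Figure D1:**
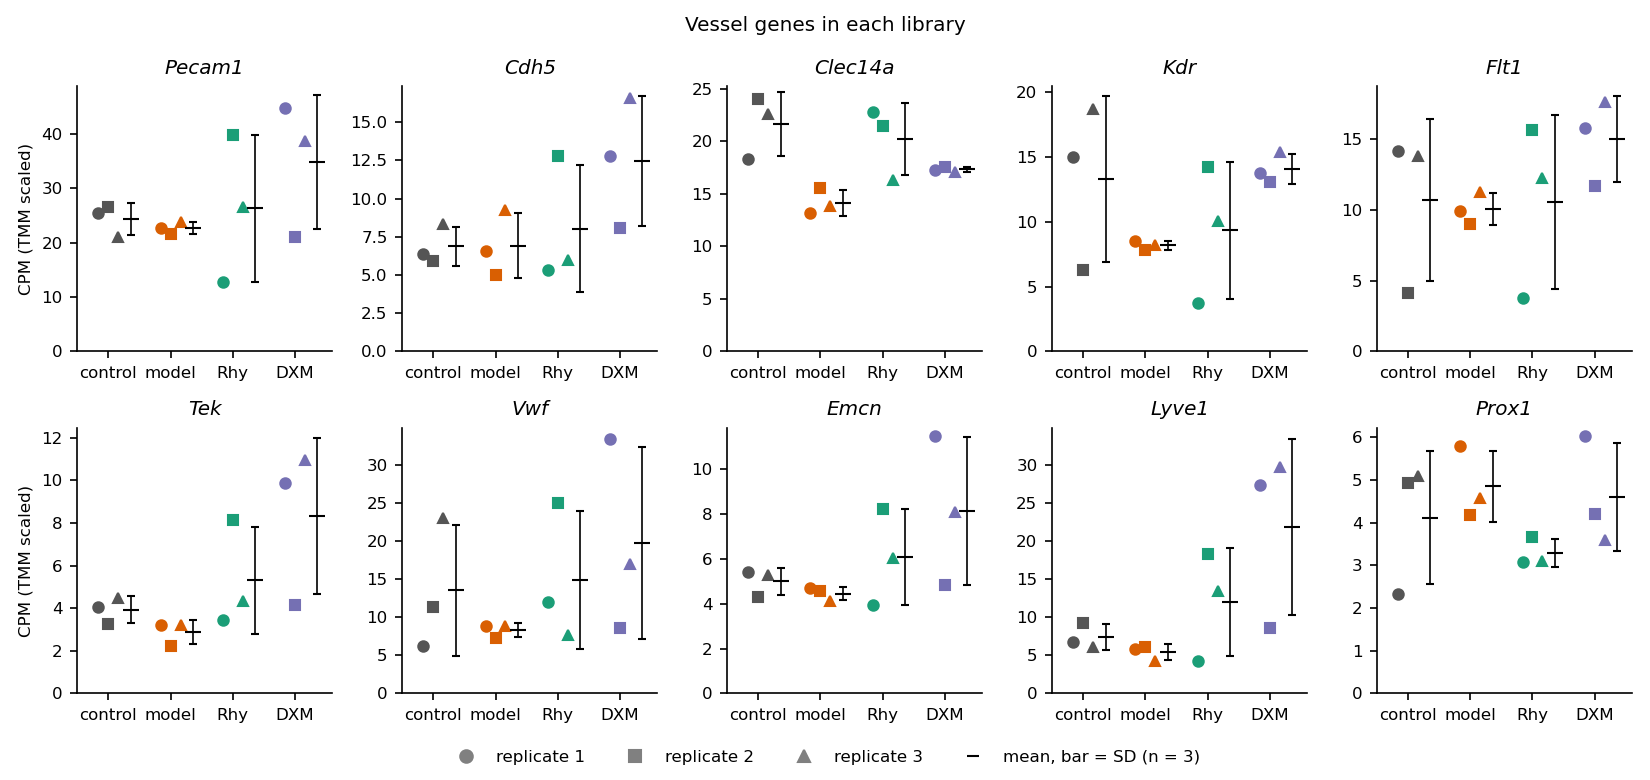
Each panel plots the CPM of 1 vessel gene in the 12 libraries by group, with a symbol for each replicate and a black dash and bar for the mean and SD of 3 libraries. Rhy 1 lies at the bottom of its group for Pecam1, Cdh5, Kdr, Flt1, Tek, Emcn, Lyve1 and Prox1, while DXM 1 and DXM 3 lie at the top for Lyve1 with 27.4 and 29.7 CPM.

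Among the junction proteins, Pecam1, an adhesion molecule of endothelium that platelets and leukocytes also carry, was at 25.5, 26.6 and 21.0 CPM in control 1 to 3 and at 22.6, 21.7 and 23.8 CPM in model 1 to 3. It was at 12.8, 39.8 and 26.5 CPM in Rhy 1 to 3 and at 44.7, 21.0 and 38.6 CPM in DXM 1 to 3. Rhy 1 was the lowest of all libraries, DXM 1 the highest, and the groups overlapped in every comparison. Cdh5, the vascular cadherin of endothelial junctions, ranged from 4.98 CPM in model 2 to 16.6 CPM in DXM 3. Its group means were 6.87 ± 1.29 CPM in control, 6.92 ± 2.15 in model, 8.04 ± 4.14 in Rhy and 12.5 ± 4.26 in DXM (SD, n = 3). DXM 2, at 8.05 CPM, fell inside the model range, so the groups overlapped.

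Clec14a, an endothelial surface lectin-like glycoprotein, was at 18.3, 24.1 and 22.6 CPM in the controls, at 13.1, 15.5 and 13.8 CPM in the model libraries, at 22.8, 21.5 and 16.4 CPM in the Rhy libraries and at 17.3, 17.6 and 17.1 CPM in the DXM libraries. All 3 model libraries lay below all the other 9. The group means ordered as model, DXM, Rhy and control, and from DXM upwards neighbouring groups overlapped.

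Starting regions of the vessel receptors and of Clec14a are shown because Clec14a kept a different order of libraries from the receptor genes Kdr, Flt1 and Tek described next. The RefSeq (GRCm38.p6) entries used here listed promoters for 6 of the 10 members, Prox1 with 2. The 250 bases before each start were read, 5′ to 3′ on the gene's strand. Bases inside an annotated exon are left out of the Kdr and Clec14a lines. Capitals mark GGAA or its reverse complement TTCC, the core letters bound by ETS family factors, which include endothelial regulators.
Tek, chr4:94739039-94739288, plus strand: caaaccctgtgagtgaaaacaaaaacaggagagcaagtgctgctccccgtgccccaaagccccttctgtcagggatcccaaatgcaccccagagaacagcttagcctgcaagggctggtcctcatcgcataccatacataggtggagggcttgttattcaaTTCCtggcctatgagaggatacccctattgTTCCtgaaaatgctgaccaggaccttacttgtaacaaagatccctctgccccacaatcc
Kdr, chr5:75978459-75978705, minus strand: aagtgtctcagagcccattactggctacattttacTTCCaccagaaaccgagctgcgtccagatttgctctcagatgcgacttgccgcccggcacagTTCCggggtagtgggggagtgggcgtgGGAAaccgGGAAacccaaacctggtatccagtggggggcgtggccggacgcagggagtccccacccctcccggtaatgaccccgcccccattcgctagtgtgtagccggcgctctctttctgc
Flt1, chr5:147726012-147726261, minus strand: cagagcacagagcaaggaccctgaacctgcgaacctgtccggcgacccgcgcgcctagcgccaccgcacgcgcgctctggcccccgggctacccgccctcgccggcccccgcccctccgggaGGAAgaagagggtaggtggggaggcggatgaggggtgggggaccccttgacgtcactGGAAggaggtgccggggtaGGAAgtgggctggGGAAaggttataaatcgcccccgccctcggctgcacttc
Clec14a, chr12:58269291-58269508, minus strand: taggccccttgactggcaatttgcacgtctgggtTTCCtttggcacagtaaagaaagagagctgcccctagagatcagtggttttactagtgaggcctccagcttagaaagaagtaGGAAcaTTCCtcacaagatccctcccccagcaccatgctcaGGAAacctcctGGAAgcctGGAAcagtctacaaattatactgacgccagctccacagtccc

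In the full 250-base windows GGAA or TTCC occurred 2 times for Tek, 4 for Kdr, 4 for Flt1, 6 for Clec14a and 4 for Emcn, and 2 and 5 times in the Prox1 windows. These letters are common: 93.4% of all 32851 promoters of that length held at least 1 match, with a median of 3. The GC box letters GGGCGG, on either strand, occurred 3 times for Flt1, 2 for Kdr, 2 and 1 in the Prox1 windows and 0 times for Tek, Clec14a and Emcn, and 32.7% of all promoters held them. TATAAA on the gene's strand was found in Flt1 alone among the members and in 7.59% of all promoters, and AGATAA on either strand in 0 of the 7 member windows and in 9.99% of all promoters. Motifs were counted separately and may overlap, and a match is a description of letters.

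Kdr, the main signalling receptor for Vegfa, was at 15.0, 6.26 and 18.7 CPM in control, 8.49, 7.83 and 8.22 CPM in model, 3.77, 14.2 and 10.02 CPM in Rhy and 13.8, 13.1 and 15.3 CPM in DXM. Flt1, a receptor that binds Vegfa with high affinity and signals weakly, was at 14.2, 4.10 and 13.8 CPM in control, 9.93, 9.04 and 11.3 CPM in model, 3.77, 15.7 and 12.3 CPM in Rhy and 15.8, 11.7 and 17.6 CPM in DXM. Both receptors were low in control 2 and Rhy 1, and both had every DXM library above every model library. Tek, the receptor for angiopoietins, was at 4.04, 3.27 and 4.50 CPM in control, 3.20, 2.24 and 3.22 CPM in model, 3.42, 8.16 and 4.36 CPM in Rhy and 9.87, 4.15 and 10.9 CPM in DXM. For Tek the model libraries lay below those of each other group, and the other groups overlapped one another.

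Vwf, the glycoprotein that tethers platelets to injured vessel walls, ranged from 6.22 to 23.1 CPM in control, 7.28 to 8.88 CPM in model, 7.70 to 25.0 CPM in Rhy and 8.63 to 33.5 CPM in DXM. Its range in model lay inside that of control, and the other groups overlapped it. Emcn, a sialomucin of capillaries and veins, was at 5.39, 4.31 and 5.27 CPM in control, 4.69, 4.55 and 4.11 CPM in model, 3.94, 8.23 and 6.05 CPM in Rhy and 11.5, 4.82 and 8.10 CPM in DXM. DXM 2 exceeded the highest model library of Emcn by little, while DXM 1 stood well above it.

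The lymphatic genes Lyve1 and Prox1 parted. Lyve1, a hyaluronan receptor of lymphatic endothelium that some tissue macrophages also carry, was at 6.81, 9.32 and 6.15 CPM in control, 5.90, 6.13 and 4.29 CPM in model, 4.28, 18.3 and 13.5 CPM in Rhy and 27.4, 8.63 and 29.7 CPM in DXM. Prox1, which sets lymphatic identity and is also made by enteroendocrine cells, was at 2.32, 4.94 and 5.11 CPM in control, 5.79, 4.19 and 4.59 CPM in model, 3.08, 3.66 and 3.11 CPM in Rhy and 6.03, 4.19 and 3.60 CPM in DXM. For Lyve1 the model libraries lay below the controls and below DXM, and Rhy 1 sat at the model level while Rhy 2 and Rhy 3 exceeded every control. For Prox1 the Rhy libraries lay below the model libraries, and the other groups overlapped with model. Exons of Prox1 overlap those of Prox1os on the opposite strand, so reads of the 2 cannot be told apart if counting ignored strand. Prox1os itself received at most 3 reads in a library.

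The model group addresses what DSS colitis did to these transcripts. Compared with control, no vessel gene passed an adjusted p of 0.05 (Benjamini-Hochberg), nor did any of the 16904 genes tested (0.0% of them) in edgeR's quasi-likelihood test. Of all genes, 1626 had an unadjusted p under 0.05, and DESeq2 called 46 at its adjusted p. At an unadjusted p under 0.05, 1 of the 10 vessel genes was lower and 0 were higher, while 4.51% of all genes were lower and 5.11% higher. That gene was Clec14a, with a log2 fold change of -0.61 ± 0.19 (SE) and adjusted p = 0.459. Without control 2 the count was 2, and with model 1 and 2 summed it was 1, again Clec14a. Kdr had a log2 fold change of -0.70 ± 0.44 and Vwf of -0.71 ± 0.57, with adjusted p = 0.630 and 0.718, and without control 3 they were -0.40 and -0.11. The median over the 10 genes was -0.31, or -0.19 without control 3, against 0.01 over all genes. Among lists of other cells, the median was -0.73 for macrophage, -0.53 for fibroblast, -0.38 for epithelial and -0.35 for pericyte genes, 0.04 for smooth muscle, 0.73 for red cell and 1.90 for fat cell genes. The fat cell sum was 17.2, 91.4 and 37.7 CPM in control 1 to 3 and 21.2, 21.9 and 231.7 CPM in model 1 to 3. Adipoq of that list had a log2 fold change of 2.72, which turned to -4.05 without model 3. Groups did not overlap for 3 members, Clec14a, Tek and Lyve1, all lower in model, where 6.61% of all genes were apart in that direction and 10.4% in the other.

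Rhy against model asks whether rhynchophylline altered these genes under DSS. edgeR called 0 genes at an adjusted p of 0.05, with 628 at an unadjusted p under 0.05, and DESeq2 called 5. Of the 10 vessel genes, 2 had an unadjusted p under 0.05, both higher, beside 1.74% of all genes higher and 1.98% lower. Clec14a had a log2 fold change of 0.51 ± 0.19 and Lyve1 of 1.15 ± 0.52, both with adjusted p = 0.9997. The count was 1 with model 1 and 2 summed, where Lyve1 no longer reached it. It was 0 without model 1 or without Rhy 2, and 1 without model 2, model 3 or Rhy 3. It was also 1 without the filter, with only the groups compared and by limma, 2 with RLE or upper-quartile scaling and 3 by DESeq2. Without Rhy 2 the log2 fold change of Lyve1 was 0.72. Tek had a log2 fold change of 0.88 ± 0.42, or 0.43 without Rhy 2, and did not reach an unadjusted p of 0.05. Pecam1, Cdh5, Kdr and Flt1 had log2 fold changes of 0.07 to 0.22, and each turned negative when Rhy 2 was left out. The median over the members was 0.33, against -0.01 over all genes, and it was -0.02 without Rhy 2 and 0.56 without Rhy 1. Clec14a and Tek were apart and higher in Rhy, where 5.51% of all genes were, and Prox1 was apart and lower, where 6.02% were.

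DXM against model serves as a comparison with a known anti-inflammatory drug. edgeR called 0 genes at an adjusted p of 0.05, with 1300 at an unadjusted p under 0.05, and DESeq2 called 52. At an unadjusted p under 0.05, 3 of the 10 members were higher and 0 lower, against 4.89% of all genes higher and 2.8% lower. Lyve1 had a log2 fold change of 2.01 ± 0.53, 4.02-fold, with adjusted p = 0.622. Tek followed at 1.52 ± 0.42 (adjusted p = 0.622) and Emcn at 0.86 ± 0.35 (adjusted p = 0.637). Vwf at 1.24 ± 0.57 and Cdh5 at 0.85 ± 0.39 had unadjusted p-values just above 0.05. While 48.47% of all genes had a positive value, Prox1 was the 1 member with a negative value, -0.08 ± 0.35. It was 0.07 without model 1 and 0.07 without DXM 3. The median over the members was 0.81, against -0.01 over all genes. DESeq2 put Lyve1 at adjusted p = 0.0391, while in the other alternatives run its adjusted p was 0.170 or more. With model 1 and 2 summed the count of 3 members was 2, without Emcn. It was 6 without DXM 2, 5 with RLE or upper-quartile scaling, without the filter or by DESeq2, and 7 with only the groups compared. In every comparison the shares of all genes belong to the fit reported. Counts from the other fits have no such share beside them, so they are not set against all genes. Emcn was at 0.54 without DXM 1, and Vwf at 0.62 without DXM 1.

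Every DXM library was above every model library for 6 members, Clec14a, Kdr, Flt1, Tek, Emcn and Lyve1, a separation seen in 10.4% of all genes in that direction and 12.2% in the other. For Kdr the 3 DXM libraries differed by at most 1.17 times, while for Lyve1 DXM 2 was 3.45 times lower than DXM 3.

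**Figure D2:**
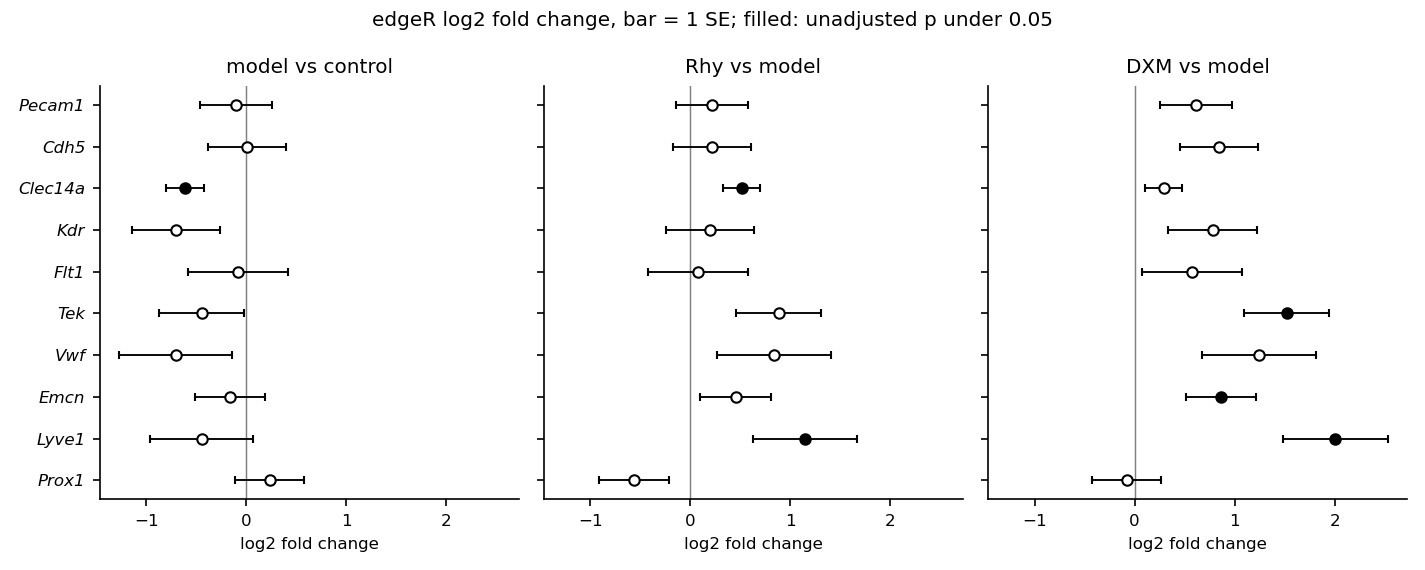
Points give the edgeR log2 fold change of each vessel gene in 3 comparisons, bars 1 standard error and filled points an unadjusted p under 0.05. Model against control centres below 0 with Clec14a filled at -0.61, and DXM against model lies above 0 for all but Prox1, with Lyve1 farthest out at 2.01.

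Rhy and DXM were also set against control, which differs from them by both DSS and drug. Rhy against control had 0 members at an unadjusted p under 0.05, or 1 without Rhy 1, beside 6.46% of all genes higher and 5.09% lower, and a member median of 0.12. That median was -0.29 without Rhy 2, 0.42 without Rhy 1, 0.27 without control 3, 0.20 without Rhy 3 and 0.08 without control 2. DXM against control had 2, both higher, beside 8.68% of all genes higher and 10.2% lower. They were Lyve1 at 1.56 ± 0.52 (adjusted p = 0.163) and Tek at 1.08 ± 0.42 (adjusted p = 0.206), with a member median of 0.52, or 0.33 without DXM 1 and 0.83 without DXM 2. That count was 1 without control 2, DXM 1 or DXM 3, and 4 without DXM 2. In DXM against control the groups did not overlap for 1 member, Clec14a, which was lower in DXM (log2 fold change -0.32 ± 0.19). It did not reach an unadjusted p of 0.05, and the share of all genes so apart is not given here. edgeR called 0 genes at an adjusted p of 0.05 in both, with 1953 and 3189 at an unadjusted p under 0.05, and DESeq2 called 33 and 1051. These comparisons share libraries with those above, and Rhy was not fitted against DXM.

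The ratio of Lyve1 to Pecam1 within a library was looked at after the values were seen. Some macrophages also carry Lyve1, and platelets and leukocytes also carry Pecam1, so the ratio does not single out lymphatic against blood vessels. It was 0.268, 0.350 and 0.292 in control and 0.261, 0.283 and 0.181 in model. It was 0.336, 0.460 and 0.510 in Rhy and 0.612, 0.411 and 0.769 in DXM. The Rhy and DXM libraries all lay above the model libraries, including Rhy 1 and DXM 2, whose CPM of both genes were the lowest of their groups. How often other gene pairs had such an order was not counted, and the part of each cell type was not tested.

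How far the members moved together was measured over the 12 libraries by correlating the log2 CPM of each gene with the mean of the other blood vessel members. Pearson's r and Spearman's rho were 0.903 and 0.860 for Tek, 0.897 and 0.881 for Emcn, 0.872 and 0.825 for Cdh5, and 0.800 and 0.580 for Pecam1. They were 0.710 and 0.825 for Kdr, 0.679 and 0.902 for Flt1, and 0.666 and 0.490 for Vwf. Lyve1, which was not among the 8 averaged genes, had 0.833 and 0.755. Clec14a (0.017 and 0.028) and Prox1 (0.160 and 0.147) did not follow the others. Without DXM 1 and DXM 3, the libraries farthest from the median, r was 0.837 for Tek, 0.650 for Lyve1 and 0.138 for Clec14a. The libraries share treatment groups and tissue make-up, so these are descriptions.

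Outside all lists, the 8 genes most like the blood vessel mean had Pearson correlations of 0.900 to 0.924: Ltbp1, Tcf21, Ptprm, Rarres2, Ppic, Timp2, Plxdc2 and Fgd5. Tcf21, a transcription factor of mesenchymal cells, had the highest Spearman correlation of the 8, 0.986. It was at 12.9, 29.2 and 23.8 CPM in Rhy 1 to 3 and at 48.8, 23.7 and 38.2 CPM in DXM 1 to 3. Timp2, an inhibitor of matrix metalloproteinases, was at 149.8, 83.6 and 139 CPM in DXM 1 to 3 and 72.5 to 76.4 CPM in model. In all 8 genes Rhy 1 was the lowest of the Rhy libraries and DXM 2 the lowest of the DXM libraries. The same holds for the vessel mean by which the 8 were chosen, so this order largely follows from the choice. The correlations are descriptions and were not tested.

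Further endothelial genes were drawn from lists. Of 20 genes of endothelial identity, 0 had an unadjusted p under 0.05 in model against control, 2 were higher in Rhy than in model (Cd34 and Rgcc) and 9 were higher in DXM than in model, with 0 lower in each. All 20 fold changes were positive in DXM against model, with a median of 0.84, and 48.47% of all genes were positive there. At an unadjusted p under 0.05, 4.89% of all genes were higher and 2.8% lower in DXM against model. In Rhy against model 1.74% were higher and 1.98% lower, and in model against control 5.11% and 4.51%. The same shares stand beside the counts of the lists that follow, which were chosen with earlier results of these data known. Cd34, a sialomucin of endothelium and of fibroblast-like cells, was at 10.04, 8.49 and 9.35 CPM in model and 40.3, 15.9 and 44.1 CPM in DXM, a log2 fold change of 1.84 ± 0.44 (adjusted p = 0.622, and 0.0236 by DESeq2). Cldn5, the tight junction claudin of endothelium, was at 3.03, 2.79 and 4.35 CPM in model and 21.3, 4.19 and 11.1 CPM in DXM. DXM 2 lay inside the model range for Cldn5 and above it for Cd34.

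Of 16 endothelial transcription factors, 1 was lower in model than in control, 1 higher in Rhy than in model and 6 higher in DXM than in model (Erg, Sox7, Sox17, Sox18, Foxc1 and Klf2) at an unadjusted p under 0.05. Foxc1 was the gene with the smallest p in each, but its level was 0.119 to 1.51 CPM. Erg, an ETS factor of endothelium, was at 2.87, 2.12 and 2.62 CPM in model and 6.72, 2.60 and 3.95 CPM in DXM. Klf4, the most abundant gene of the list at 157.6 FPKM, is also made by epithelium and had a Pearson correlation of -0.362 with the vessel mean.

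Further lymphatic genes were drawn from a list. Of the list's 9 tested genes, 6 were higher in DXM than in model at an unadjusted p under 0.05. They were Flt4, Pdpn, Reln, Mmrn1, Tbx1 and Foxp2. In model against control and in Rhy against model 0 reached that threshold. The list's median in DXM against model was 1.22, with Nrp2 at -0.12 and Thy1 at 0.39. In the same comparison Prox1 was at -0.08, and 9 of 10 fibroblast genes were higher at that threshold. Which cells carried the list's transcripts was not tested. Flt4, the receptor for Vegfc, was at 3.81, 4.19 and 2.98 CPM in model and 14.8, 3.90 and 9.07 CPM in DXM. Mmrn1, a lymphatic and platelet multimerin, was at 5.57, 4.67 and 3.87 CPM in model and 19.3, 6.41 and 19.7 CPM in DXM. Flt4 thus overlapped through DXM 2, whereas Mmrn1 was apart. Ccl21a, the chemokine that draws dendritic cells into lymphatics and the list's most abundant gene at 18.4 FPKM, ranged from 0.428 to 35.3 CPM. Its symbol belongs to 2 gene identifiers in the table and the one with more reads is given, so its level is uncertain.

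A list of 10 secreted vessel factors held the VEGF family, Pgf, Angpt1, Angpt2 and, beyond the ligands of Kdr, Flt1 and Tek, Angptl4, Apln and Adm. Of these, 0 reached an unadjusted p under 0.05 in model against control or Rhy against model, and 1, Angpt1, was higher in DXM than in model. The list medians were -0.38, 0.43 and 0.36 in model against control, Rhy against model and DXM against model. Angpt1, the activating ligand of Tek, was at 0.717, 0.667 and 1.43 CPM in model and 1.58, 2.94 and 2.84 CPM in DXM (log2 fold change 1.38 ± 0.56, adjusted p = 0.637). Vegfb led the list at 14.28 FPKM. Against control, Vegfa was lower and Vegfc higher in both Rhy and DXM at an unadjusted p under 0.05. At an adjusted p of 0.05, 0 genes of the list passed. Of all genes, 6.46% were higher and 5.09% lower at the unadjusted threshold in Rhy against control, and 8.68% and 10.2% in DXM against control. Vegfa was at 57.1, 58.6 and 41.3 CPM in model and 40.1, 47.0 and 27.7 CPM in Rhy, and the groups overlapped (log2 fold change -0.45 ± 0.24, adjusted p = 0.9997, and -0.27 without Rhy 3).

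Genes of arteries and veins were followed in the same way. Of 14 Notch and artery genes, Efnb2, an arterial ephrin that epithelium also makes, was lower in model than in control with a log2 fold change of -0.63 ± 0.18 (adjusted p = 0.459). Gja5, an arterial connexin at 0.278 to 2.63 CPM, was 2.83-fold higher in Rhy and 3.96-fold higher in DXM than in model (adjusted p = 0.9997 and 0.622). In DXM against model 2 genes of that list, Gja5 and Sema3g, and 2 of 9 vein and leukocyte adhesion genes, Ackr1 and Selp, had an unadjusted p under 0.05, all higher. Selp, the platelet and endothelial P-selectin, was at 0.607, 0.303 and 0.417 CPM in model and 1.10, 1.40 and 3.34 CPM in DXM. Ephb4 led the vein list at 14.8 FPKM.

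Cells around vessels were followed by their markers. Summed over 10 fibroblast genes, led by Col3a1 at 39.7 FPKM and with 0 genes at 0, the level was 1053, 589 and 879 CPM in control, 596, 600 and 555 CPM in model, 438, 1160 and 1754 CPM in Rhy and 1455, 975 and 2032 CPM in DXM. Of these genes 6 were higher in Rhy than in model and 9 in DXM than in model at an unadjusted p under 0.05, with list medians of 0.91 and 1.33. Rhy 1 was again low and DXM 2 the lowest of its group. Fbln1 had the smallest p in DXM against model (log2 fold change 1.28 ± 0.31, adjusted p = 0.622, and 0.0401 by DESeq2) and Pi16 in Rhy against model (4.12 ± 1.27, adjusted p = 0.9997). Pi16 was at 0.110 to 0.834 CPM in model and 0.257 to 15.2 CPM in Rhy, so these groups overlapped. Its log2 fold change ran from 2.78 to 5.28 with 1 library left out, and was 1.05 in the lowest alternative.

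Of 10 pericyte genes, led by Rgs5 at 64.2 FPKM, 4 were higher in DXM than in model at an unadjusted p under 0.05, Mcam first (log2 fold change 0.86 ± 0.21), and the sum was 400, 409.7 and 394 CPM in model and 535.5, 510.3 and 508 CPM in DXM. Rgs5 carried most of that sum. Of 10 smooth muscle genes, led by Actg2 at 694 FPKM, 5 were, with sums of 5624, 5537 and 4332 CPM in model, 6659, 7486 and 7202 CPM in Rhy and 9044, 5930 and 10510 CPM in DXM. All Rhy and DXM libraries exceeded all model libraries in the smooth muscle sum. The epithelial sum was 20350, 20090 and 23490 CPM in model, 25210, 28310 and 28060 CPM in Rhy and 23640, 19220 and 19470 CPM in DXM, so Rhy lay above model and DXM overlapped it. Of the 10 epithelial genes, 10 were higher in Rhy than in model, where 48.3% of all genes were, with a median of 0.33. Of them, 0 had an unadjusted p under 0.05. For DXM against model 0 reached it, and 3 were lower in model than in control, Vil1 first. The part of the fibroblast, pericyte and muscle content of each piece of tissue in the vessel gene differences was not tested.

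**Figure D3:**
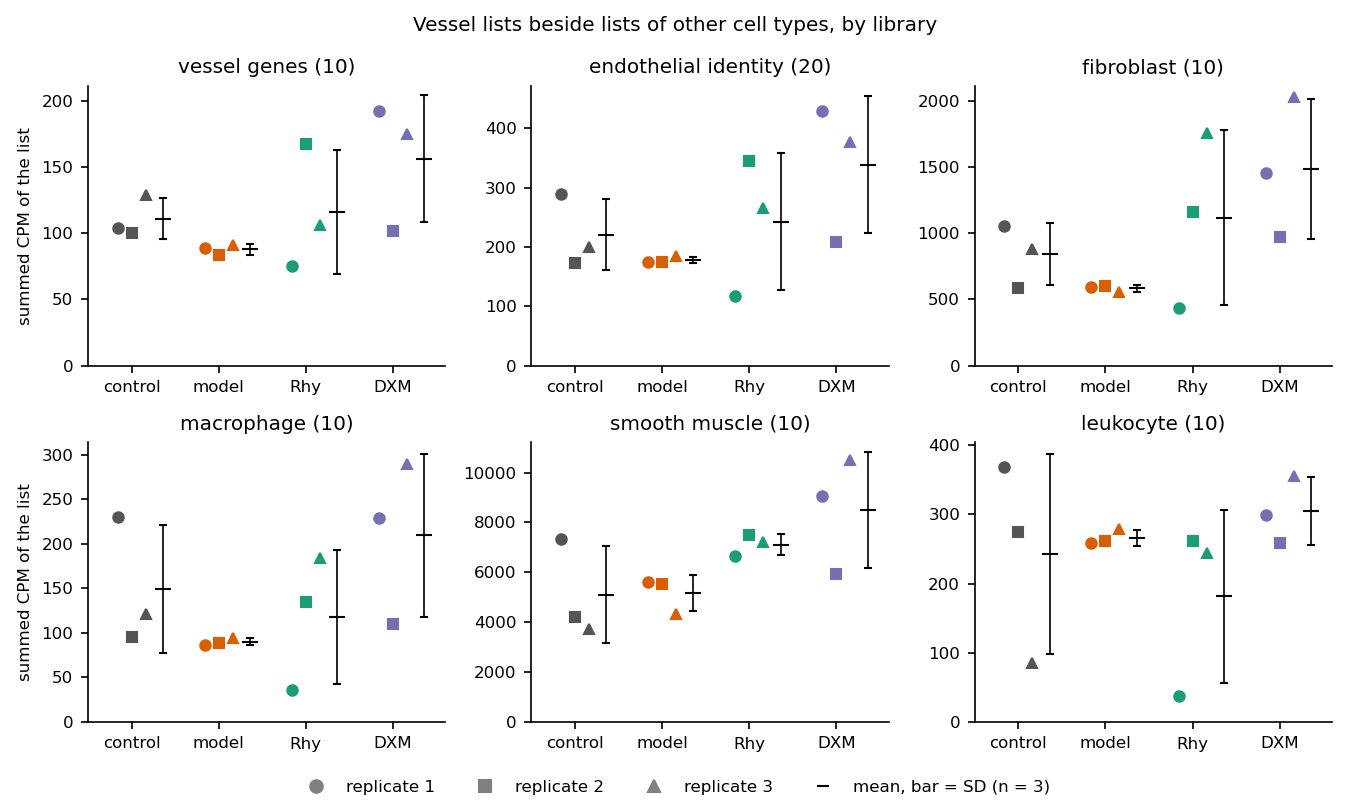
Each panel plots the summed CPM of a gene list in the 12 libraries by group, with a symbol for each replicate and the mean and SD of 3 libraries. The vessel sum runs from 75.1 CPM in Rhy 1 to 192.5 CPM in DXM 1, the fibroblast and macrophage sums are also lowest in Rhy 1, at 438 and 35.96 CPM, and the leukocyte sum is low in control 3 and Rhy 1.

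Macrophage genes matter beside Lyve1 and Tek, which some macrophages carry. The sum of 10 macrophage genes, led by C1qa at 41.6 FPKM and with 0 genes at 0, was 231, 95.5 and 122 CPM in control, 86.8, 88.5 and 94.7 CPM in model, 35.96, 134 and 184 CPM in Rhy and 229, 110.2 and 289.5 CPM in DXM. Of 9 tested, 3 were lower in model than in control (Csf1r, Mrc1 and Cd163), 2 higher in Rhy than in model (Mrc1 and Cd163) and 5 higher in DXM than in model at an unadjusted p under 0.05. Mrc1, the mannose receptor of resident macrophages and of some lymphatic endothelium, was at 4.36, 4.43 and 4.71 CPM in model and 23.0, 9.69 and 27.5 CPM in DXM (2.16 ± 0.53, adjusted p = 0.622, and 0.0236 by DESeq2). Mrc1 thus had the same order of DXM libraries as Lyve1, an order that Cdh5, Kdr, Flt1 and Tek also had. The part of macrophages in the Lyve1 and Tek differences was not tested.

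Platelets and leukocytes were considered because they carry Pecam1 and, for platelets, Vwf. Of 8 platelet genes 4 were tested, Treml1 was at 0 in every library, and Pf4, which macrophages also make, led at 7.22 FPKM and was higher in DXM than in model (2.58 ± 0.70, adjusted p = 0.622, and 0.0354 by DESeq2). All 4 fold changes were positive in DXM against model, where 48.47% of all genes were, with a median of 1.54. Only Pf4 had an unadjusted p under 0.05. The platelet sum was 17.2, 17.9 and 9.59 CPM in model and 35.0, 17.9 and 43.0 CPM in DXM. The leukocyte sum was 258, 262 and 279 CPM in model and 300, 258 and 356 CPM in DXM, and 37.7 CPM in Rhy 1 and 84.5 CPM in control 3. Of its 10 genes, led by Coro1a at 29.5 FPKM, only S100a8 was higher in DXM than in model and only Cd3e lower in Rhy than in model at an unadjusted p under 0.05. S100a8, a neutrophil gene, was also lower in model than in control at that threshold, but its level was near the floor, 0 to 0.243 CPM in model and 0.110 to 3.45 CPM in control, and these groups overlapped. The part of platelets and leukocytes in the Pecam1 and Vwf values was not tested. Red cell genes had 0 of 3 tested at that threshold in every comparison, with Hba-a1 leading at 39.3 FPKM.

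Lists for tissue position and other cells complete the account. Enteroendocrine and tuft genes, included because of Prox1 and led by Pyy at 163.6 FPKM, had 1 of 8 at an unadjusted p under 0.05 in DXM against model, Dclk1, which was lower. Dclk1 was also lower in Rhy than in model. Of 6 tested fat cell genes 0 reached it in any comparison, with Cfd, the most abundant, at 79.0 CPM in model 3 and 0.607 CPM or less in model 1 and 2. Of 8 colon position genes, led by Mettl7b at 309.8 FPKM, Cdx2 and Mettl7b were lower in DXM than in model. Without the 3 libraries low in Hoxb13, the member medians were -0.22 in model against control, 0.63 in Rhy against model and 0.81 in DXM against model. This setting was added after the values were seen, and it leaves the model group with only model 1 and model 2, the near-identical pair. The part of colon position in the vessel gene values was not tested beyond this.

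**Figure D4:**
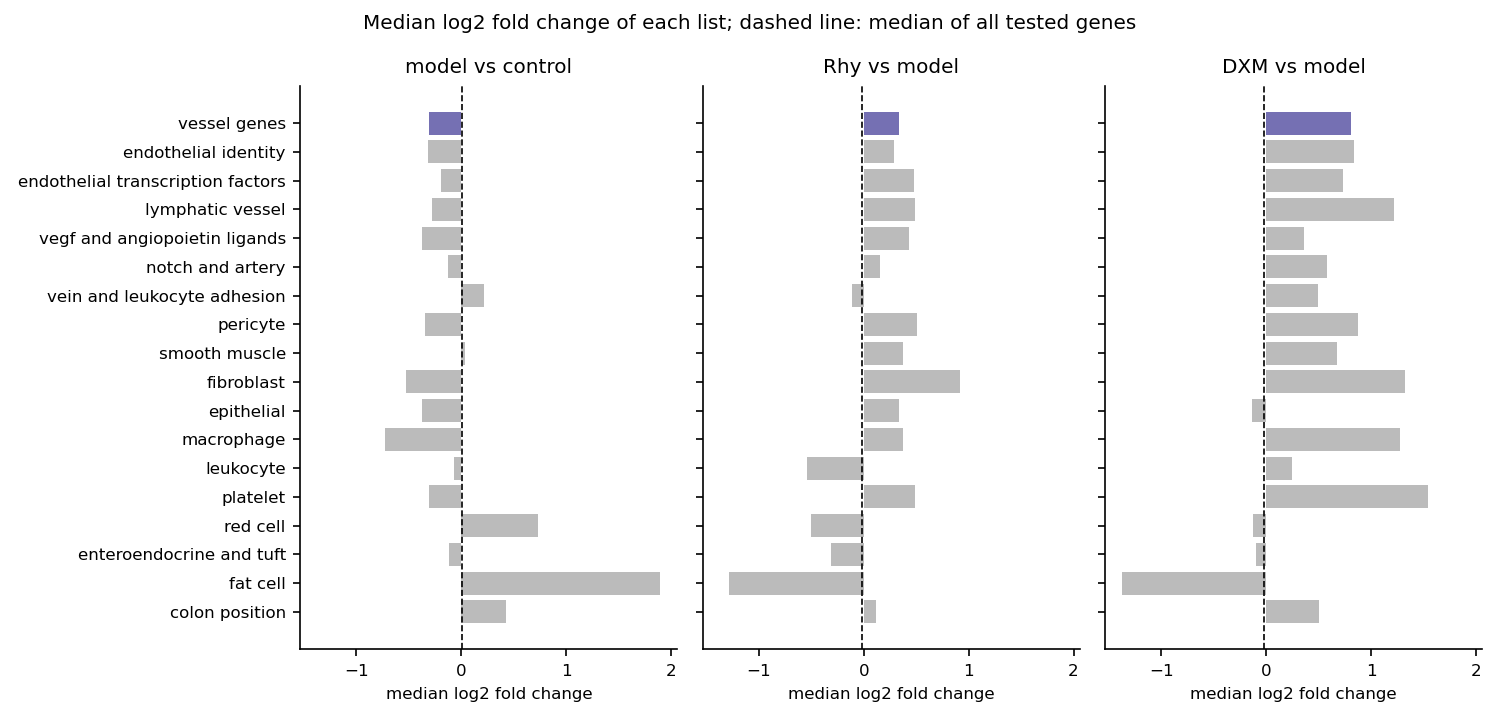
Bars give the median log2 fold change of the tested genes of each list in 3 comparisons, with the vessel genes in purple, and the dashed line marks the median of all tested genes. In DXM against model the vessel median of 0.81 stands beside 1.54 for platelet, 1.33 for fibroblast, 1.27 for macrophage and 1.22 for lymphatic genes, while the epithelial median is -0.14.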

How the data were processed

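RNA came from sections of colon, and mRNA libraries were sequenced on a HiSeq X10. The deposited counts are whole reads per gene that the authors produced. The submitters' processing notes name HISAT2 2.0.5, featureCounts 1.5.0-p3, DESeq2 1.16.1 and mm10. The authors also deposited FPKM, which equal the counts times a constant for each library over gene length. Positions matched GENCODE M21 for 98.33% of identifiers. Whether counting used strand was not given in the sources used here.

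R 4.3.3 ran the fits. edgeR 4.0.16 kept 16904 genes (filterByExpr, minimum count 10), scaled by TMM and fitted all 12 libraries at once by quasi-likelihood, because 3 libraries per group hold little information on spread. Tests were two-sided, with Benjamini-Hochberg adjustment within each comparison. CPM use TMM-scaled library sizes, log2 CPM a prior count of 2, and a standard error is the absolute log2 fold change over the root of F. On simulated counts with 200 genes changed 4-fold, edgeR recovered 102 with 10 false calls, and DESeq2 recovered 143 with 48 false calls. Alternatives used RLE and upper-quartile scaling, no filter, only the groups compared, a replicate block, DESeq2 1.42.0, limma 3.58.1 on log2 FPKM with pseudocounts of 1 and 0.1, model 1 and 2 summed, and each library left out. The fit without libraries under 2 CPM of Hoxb13 and the ratio of Lyve1 to Pecam1 were added after the values were seen. Python 3.11.15 with pandas 2.3.3, SciPy 1.17.1 and matplotlib 3.10.9 made the summaries and figures.

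The pairing check correlated deviations from the group means over the tested genes. Same-numbered model and control libraries had r = 0.210, 0.104 and 0.363, each over 0.1. The labels do not say what a number marks, so this rests on the values alone. The fit reported is unpaired, and the replicate block is an alternative.

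The 10 members and 17 companion lists were chosen with earlier results of these data known. Named genes are the members, the most abundant and smallest-p genes of each list, genes behind a count, and the 8 genes outside the lists most like the blood vessel mean. Hoxb13, Ms4a1, Cldn5, Erg, Flt4, Mmrn1, Nrp2 and Thy1 were picked after their values were seen.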

Additional observations from a re-analysis of the deposited data

How the results depend on the processing

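Depth limits Prox1 most, with 31 to 105 reads per library, and 3 libraries per group limit every comparison. With 1 library left out, the median of the vessel genes ran from -0.365 to -0.189 in model against control, -0.0156 to 0.557 in Rhy against model, 0.582 to 0.977 in DXM against model, -0.292 to 0.416 in Rhy against control and 0.332 to 0.832 in DXM against control. The medians of Rhy against model and Rhy against control thus turned sign, both without Rhy 2. By limma with pseudocount 1, which shrinks fold changes of low values by construction, the medians were -0.165, 0.168, 0.445, 0.0174 and 0.284 in the same order, and with pseudocount 0.1 that of Rhy against control was 0.0246. Without the libraries low in Hoxb13 they were 0.633 in Rhy against model and 0.575 in Rhy against control. Of 480 alternatives for single vessel genes, 1 passed an adjusted p of 0.05, Lyve1 in DXM against model by DESeq2. The causes of the changes below were not tested, beyond the fewer libraries in some fits.

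Genes called, 0 in each comparison, were in model against control 1 without the filter, 1 with only the groups compared and 46 by DESeq2. In Rhy against model they were 5 by DESeq2 and 2 by limma with pseudocount 0.1. In DXM against model they were 2 with only the groups compared, 52 by DESeq2, 2 by limma with pseudocount 0.1 and 2 without the libraries low in Hoxb13. In Rhy against control they were 1 without the filter and 33 by DESeq2, and in DXM against control 13 and 1051. With 1 library left out they were 0 to 1 in model against control, 0 to 1 in Rhy against model and 0 to 4 in DXM against control.

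Vessel genes at an unadjusted p under 0.05 in Rhy against model, 2 in the fit reported, were 1 without the filter, with only the groups compared, by limma with either pseudocount and with model 1 and 2 summed. In DXM against model, 3 in the fit reported, they were 5 with RLE scaling, with upper-quartile scaling, without the filter and by DESeq2, and 7 with only the groups compared. In DXM against control they were 1 by limma with pseudocount 0.1. With 1 library left out they were 1 to 2 in model against control, 0 to 2 in Rhy against model, 2 to 6 in DXM against model, 0 to 1 in Rhy against control and 1 to 4 in DXM against control.

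With the replicate block, vessel genes at an unadjusted p under 0.05 were 1 in model against control, 1 in Rhy against model, 2 in DXM against model, 0 in Rhy against control and 2 in DXM against control, and 0 genes were called in each. Against 2 and 3 in the fit reported, Lyve1 was lost from the count of Rhy against model and Emcn from that of DXM against model, and the same vessel genes were counted in the other comparisons. In model against control 5 of 6 libraries correlated best with their own number in the other group, and in each of the other comparisons 0 of 6 did. The pairing check there gave r of -0.231, 0.142 and -0.198 for Rhy against model, -0.015, -0.089 and -0.139 for DXM against model, -0.310, -0.114 and -0.046 for Rhy against control, and 0.050, -0.061 and -0.012 for DXM against control.

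Log2 fold changes that turned sign were small or rested on few libraries. In model against control Cdh5 was -0.0434 with RLE scaling, -0.0448 by DESeq2, -0.038 and -0.0681 by limma with pseudocounts 1 and 0.1, and -0.1261 without the libraries low in Hoxb13. Flt1 was 0.0201 by limma with pseudocount 0.1 and 0.024 without those libraries, and Adipoq -3.6003 without them. With 1 library left out, Cdh5 ran from -0.3009 to 0.2005, Flt1 from -0.4713 to 0.1616, Prox1 from -0.0488 to 0.3866 and Adipoq from -4.0494 to 3.3044. In Rhy against model, limma with pseudocount 0.1 gave -0.0799 for Flt1 and 0.712 for Adipoq, and Adipoq was 5.4709 without the libraries low in Hoxb13. With 1 library left out, Pecam1 ran from -0.2029 to 0.5477, Cdh5 from -0.291 to 0.5078, Kdr from -0.2374 to 0.5671, Flt1 from -0.3183 to 0.4718 and Adipoq from -2.7701 to 5.1738. In DXM against model Hba-a1 was 0.0122 and Plin1 5.5419 without the libraries low in Hoxb13. With 1 library left out, Prox1 ran from -0.3174 to 0.0722, Hba-a1 from -0.7258 to 0.1175 and Plin1 from -2.8037 to 5.5002.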
